A study of Mus musculus with 68 samples.

Results

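The 10 lung genes of peroxide and superoxide removal were followed across a pair of mouse strains and an inhaled carcinogen. They were 4 glutathione peroxidases (Gpx1, Gpx2, Gpx3 and Gpx4), 2 peroxiredoxins (Prdx1 and Prdx6), 3 superoxide dismutases (Sod1, Sod2 and Sod3) and catalase (Cat). The genes were taken by symbol from an RNA-seq count table and made up 10 of its 23893 entries. All 10 passed the filter on low counts, with a smallest count of 107 in any library.

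The study exposed male wild-type mice of the inbred strains C57BL/6J and CAST/EiJ to 1,3-butadiene (BD), an industrial gas that is a carcinogen, for 6 h a day on weekdays over 2 weeks, and asked how gene expression in the lung differed between strains and changed with exposure. Whole-lung polyA RNA was sequenced from C57BL/6J in 5 libraries of clean air and 6 of BD, and from CAST/EiJ in 7 and 6. Libraries are named by group and replicate, numbered within a group in the order of the samples, so equal replicate numbers do not pair libraries. The mice came from a commercial breeder; the BD concentration and the ages are not given in the sources used here. Whether each library was a separate animal is also not given, so the p-values measure the spread between these libraries, which may be partly technical.

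Superoxide dismutases turn superoxide into hydrogen peroxide: Sod1 in the cytosol with copper and zinc, Sod2 in mitochondria with manganese, and Sod3 outside the cell, where it is bound to the matrix of lung and vessel wall. Catalase in peroxisomes then breaks down hydrogen peroxide, and the glutathione peroxidases and the peroxiredoxins reduce hydrogen peroxide and lipid hydroperoxides. The glutathione peroxidases draw electrons from glutathione, and most peroxiredoxins draw them from thioredoxin. Several genes of these systems, Gpx2 and Prdx1 among them, are known targets of the transcription factor Nrf2, which binds antioxidant response elements in DNA.

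The upstream sequences of 4 of the genes are shown to place that element beside the measurements. RefSeq's promoter table (GRCm38.p6) held 11 windows for 8 of the 10 genes, with no entry for Prdx6 and Sod3. In each window the 250 bases before the annotated start were searched on both strands for the core letters TGACNNNGC of the antioxidant response element. The letters were present in the windows of Prdx1 and Sod1, that is in 2 of the 8 genes, and in 10.2% of all 32851 windows of that length. In Prdx1 they read TGACTCAGC on the minus strand, 133 to 125 bases before the start, and in Sod1 they read TGACCACGC on the minus strand, 56 to 48 bases before the start. The capitals mark these letters as they stand on the strand of the gene, 5′ to 3′:
Prdx1 (chr4:116685349-116685598, plus strand): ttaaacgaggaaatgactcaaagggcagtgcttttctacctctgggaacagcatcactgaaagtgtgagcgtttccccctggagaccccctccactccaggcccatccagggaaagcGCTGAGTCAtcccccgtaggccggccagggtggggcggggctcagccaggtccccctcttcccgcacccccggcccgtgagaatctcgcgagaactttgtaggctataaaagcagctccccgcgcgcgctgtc
Sod1 (chr16:90220512-90220761, plus strand): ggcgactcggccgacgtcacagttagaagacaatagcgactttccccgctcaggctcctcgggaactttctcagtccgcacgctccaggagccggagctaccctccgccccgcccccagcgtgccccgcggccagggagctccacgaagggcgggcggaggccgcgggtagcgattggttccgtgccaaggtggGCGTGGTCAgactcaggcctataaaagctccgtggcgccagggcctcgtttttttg
Gpx2, which rose with BD in C57BL/6J, is shown because its window held neither these letters nor a GC box (GGGCGG, the letters bound by Sp1), so nothing is in capitals:
Gpx2 (chr12:76795555-76795804, minus strand): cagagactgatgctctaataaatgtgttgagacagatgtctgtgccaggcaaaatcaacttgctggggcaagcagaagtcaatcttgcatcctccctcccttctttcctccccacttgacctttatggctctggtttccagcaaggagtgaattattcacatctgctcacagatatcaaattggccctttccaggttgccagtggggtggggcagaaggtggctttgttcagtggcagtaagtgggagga
Sod2 is shown for its 4 GC boxes, which are in capitals:
Sod2 (chr17:13007589-13007838, plus strand): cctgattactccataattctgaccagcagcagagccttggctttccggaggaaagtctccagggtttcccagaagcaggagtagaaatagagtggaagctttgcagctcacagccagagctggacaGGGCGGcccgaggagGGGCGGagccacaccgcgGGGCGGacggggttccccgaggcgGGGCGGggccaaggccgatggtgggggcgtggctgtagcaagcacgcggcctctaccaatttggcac
A GC box on either strand was present in 6 of the 8 genes and in 32.7% of all windows. Sod1 also held 4, in overlapping pairs. A match describes letters only and is neither a shown binding site nor a cause, and its absence concerns this window alone.

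Total counts ran from 10597990 to 50001571 per library. One library, labelled CAST/EiJ BD with title number 8, went against its label: on a strain index set to 0 in clean-air C57BL/6J and 1 in clean-air CAST/EiJ, it stood at 0.0454, against 0.977 to 0.999 in the rest of its group and 0.0305 to 0.0612 in C57BL/6J BD. This library, replicate 5 of its group and called number 8 here, was kept out of the fit of 23 libraries and is shown apart. The levels of the 10 genes in it lay inside the C57BL/6J BD range for 8 genes and inside the CAST/EiJ BD range for 2, Gpx3 and Prdx6, which were inside both. A further division ran through the clean-air groups. Title numbers over 100 were carried by 5 of 7 CAST/EiJ clean-air libraries (replicates 1 to 5), by 1 of 5 C57BL/6J clean-air libraries (replicate 1) and by no BD library; what the numbers stand for is not given in the sources used here. With this number series as a covariate, Gpx4 was higher in the numbers over 100 by 0.69 (log2; edgeR quasi-likelihood, adjusted p = 0.000195), Gpx1 by 0.51 (adjusted p = 0.000148), Gpx2 by 0.46 (adjusted p = 0.0214) and Prdx1 by 0.40 (adjusted p = 0.000765). For Gpx2 the clear gap was that of 1 library, C57BL/6J replicate 1, at 19.0 against 8.0 to 10.3 CPM. In CAST/EiJ the Gpx2 values of the series overlapped, at 27.5 to 41.8 CPM over 100 and 26.2 to 34.6 CPM in the others. The other 6 genes did not pass, and 4280 of 17377 genes did. Each comparison with clean air is therefore also given without those libraries and with the covariate.

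**Figure D1:**
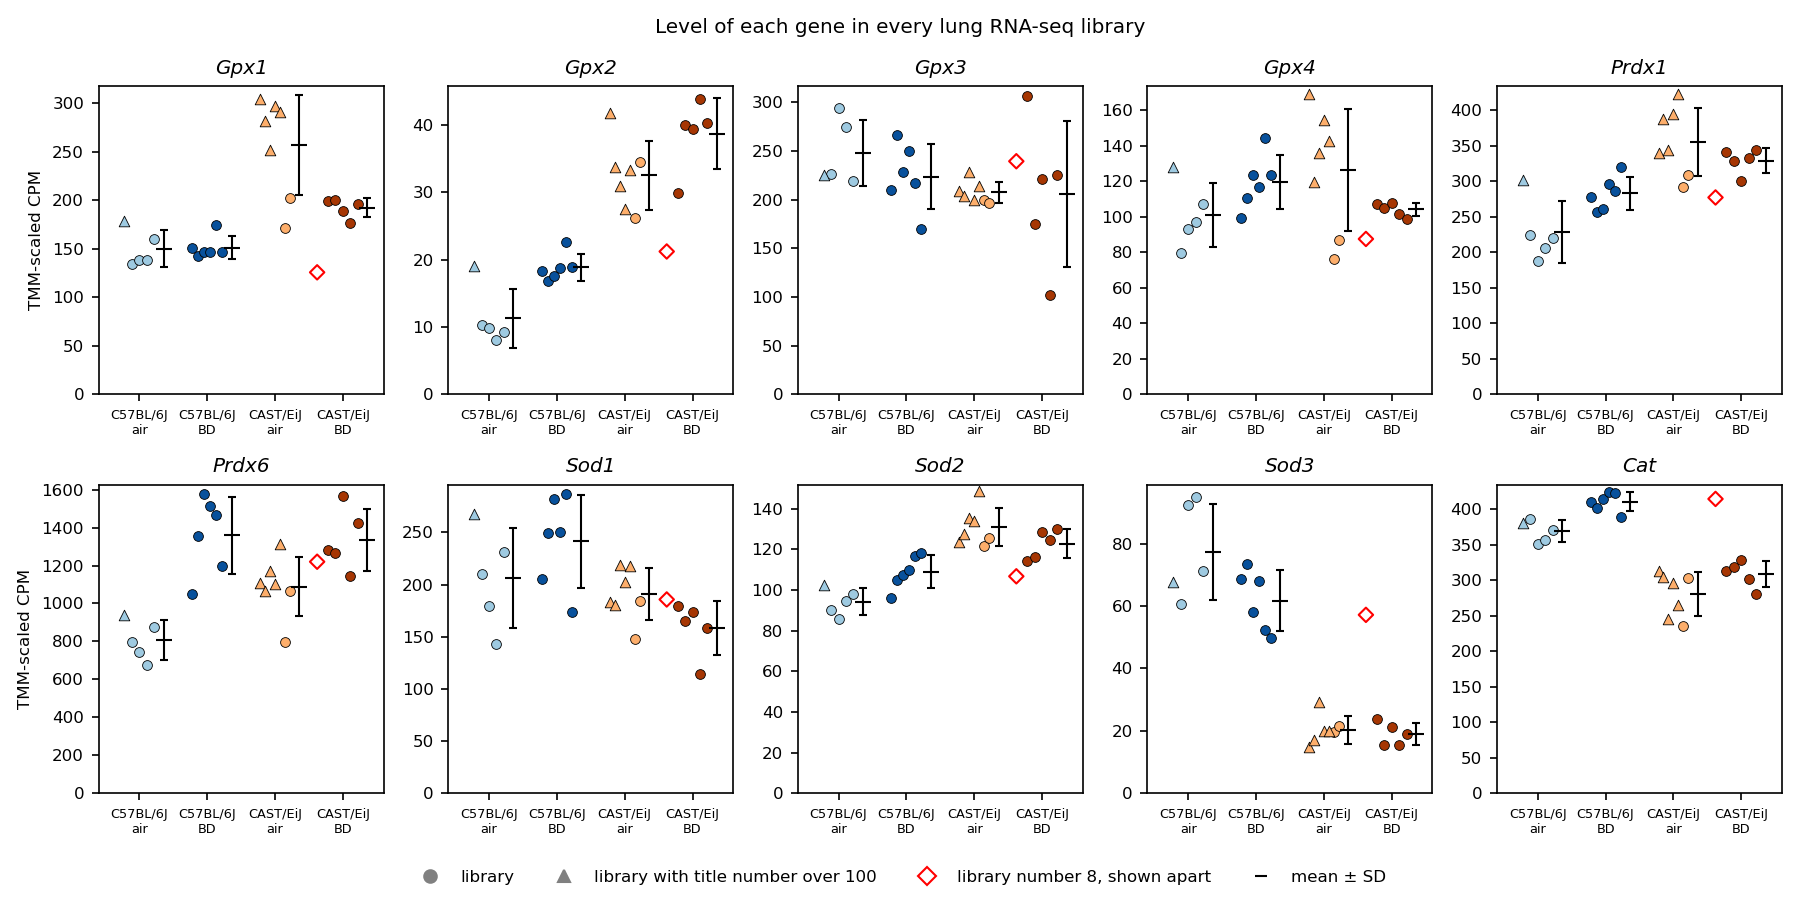
Level of each gene in every library, as counts per 1000000 (CPM) scaled by the trimmed mean of M values (vertical axis, starting at 0), for the 4 groups of strain and exposure. Circles are libraries, triangles are libraries with a title number over 100, the red open diamond is library number 8, and the black marks are mean ± SD without it; Sod3 separates the strains, Prdx6 separates C57BL/6J BD from clean air, and the diamond lies with C57BL/6J for Sod3 and Cat.

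To determine which of the genes changed with BD in C57BL/6J, the 6 exposed libraries were set against the 5 from clean air. Gpx2, Prdx6 and Sod2 rose, none fell, and 7 did not pass an adjusted p of 0.05. Over all 17377 genes tested, 10.7% passed in either direction, 4.2% as higher and 6.49% as lower. That percentage depended on single libraries: 1857 genes passed, against 977 without clean-air replicate 3 and 1216 without BD replicate 5. At an unadjusted p under 0.05, edgeR gave 5 genes as higher and 1, Sod3, as lower. For scale, Sod3, at an edgeR p of 0.0461, ranked 4131 of 17377 genes by p. DESeq2 and limma-voom each called 4 of the 10 higher and none lower. Over all genes, DESeq2 called 952 higher and 1336 lower, and limma-voom 704 and 1106. The median log2 fold change was 0.22 over the 10 genes and -0.0024 over all genes. Levels below are counts per 1000000 (CPM) scaled by the trimmed mean of M values, and fold changes come from the edgeR fit.

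Prdx6 encodes a peroxiredoxin that reduces phospholipid hydroperoxides with glutathione and also has phospholipase activity toward lung surfactant. In clean air the C57BL/6J libraries measured 676, 747, 796, 879 and 941 CPM. Under BD the lowest, median and highest of 6 libraries were 1048, 1409 and 1579 CPM. Every BD library was above every clean-air library, which was the case, in either direction, for 7.92% of all genes. The mean rose from 807.5 ± 104.9 CPM (SD, n = 5) to 1359 ± 202.5 CPM (SD, n = 6), a 1.68-fold rise (log2 0.75 ± 0.12 SE, adjusted p = 0.000394). It remained called under each of the 31 alternatives, with log2 values between 0.69 and 0.82. Of 8 alveolar type 2 cell markers, 1 rose and 1 fell, and their summed level was 16540 to 19680 CPM in clean air and 19600 to 23570 CPM under BD, with none of them at 0; of 4 club cell markers, none at 0, none passed, and their sum was 8726 to 10730 and 7255 to 9296 CPM. The part of these cell types in the Prdx6 result was not tested. In bulk tissue, fewer cells of a type and less RNA per cell cannot be told apart.

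Gpx2 encodes the glutathione peroxidase best known from the lining of the gut. The clean-air libraries measured 8.0, 9.28, 9.83, 10.3 and 19.0 CPM, the last in replicate 1, which carries a title number over 100. Under BD the lowest, median and highest were 16.9, 18.5 and 22.7 CPM. The groups overlapped through clean-air replicate 1 alone, since the other 4 clean-air libraries lay below all 6 BD libraries. The mean rose from 11.3 ± 4.41 (SD, n = 5) to 18.9 ± 2.02 CPM (SD, n = 6), 1.65-fold (log2 0.72 ± 0.17 SE, adjusted p = 0.00772). The log2 value was 1.02 (adjusted p = 4.27e-05) without that replicate, and the call held in all 31 alternatives. Markers of squamous epithelium, a lining that lung does not normally hold, summed to 1590 CPM in clean-air replicate 1 and to 3.05 to 6.43 CPM in the other clean-air C57BL/6J libraries. Under BD the sum ranged from 3.25 CPM in replicate 4 to 1130 CPM in replicate 1, where Gpx2 measured 18.8 and 18.3 CPM. The highest Gpx2 under BD, 22.7 CPM in replicate 5, came with a sum of 778 CPM. None of the 8 squamous markers was at 0 and none passed the test, and the part of squamous tissue in the Gpx2 result was not tested. A pseudogene, Gpx2-ps1, has its own entry, which averaged 2.14 ± 0.332 CPM (SD, n = 5) without exposure and 2.20 ± 0.360 CPM with BD (SD, n = 6; log2 0.036, adjusted p = 0.945); how reads shared between the copies were counted is not given in the sources used here, so the Gpx2 level carries that uncertainty.

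Sod2, the mitochondrial dismutase, measured 85.9, 90.3, 94.9, 98.2 and 102.6 CPM in clean air. Under BD its lowest, median and highest values were 96.3, 109 and 118 CPM. The ranges overlapped at replicate 1, the lowest of the BD libraries. The mean went from 94.4 ± 6.55 (SD, n = 5) to 109 ± 8.12 CPM (SD, n = 6), 1.15-fold (log2 0.21 ± 0.064 SE, adjusted p = 0.0404). This small rise lay close to the threshold. It stayed called without numbers over 100 (0.24, adjusted p = 0.0149) and with the covariate (0.23, adjusted p = 0.00936). It was lost with number 8 kept (adjusted p = 0.0612) and without any 1 of 7 libraries: clean-air replicate 2 (0.0964), 3 (0.133), 4 (0.0724) or 5 (0.0516), or BD replicate 4 (0.0733), 5 (0.0998) or 6 (0.0854).

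The other genes did not pass in C57BL/6J. Prdx1, a thioredoxin-dependent cytosolic peroxiredoxin, measured 187, 206, 220, 224 and 302 CPM in clean air, and 257, 281 and 320 CPM at the lowest, median and highest under BD. As for Gpx2, replicate 1 was the only clean-air library within the BD range. The log2 fold change was 0.31 ± 0.10 SE (adjusted p = 0.0568). It passed without that replicate at a log2 of 0.43 (adjusted p = 0.00377), without CAST/EiJ clean-air replicate 5 (adjusted p = 0.0477), 6 (0.0416) or 7 (0.0419), with the number series as covariate (0.41, adjusted p = 0.000695) and with DESeq2 (0.31, adjusted p = 0.0318) or limma-voom (0.33, adjusted p = 0.0373). Its entry overlaps the long noncoding RNA AV051173, and strand use in counting is not given in the sources used here.

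Gpx4, the selenoenzyme that reduces lipid hydroperoxides inside membranes, went from 101.2 ± 18 (SD, n = 5) to 120 ± 15.1 CPM (SD, n = 6), with a log2 of 0.24 ± 0.16 SE (adjusted p = 0.381). It passed as higher in the fits that set the number series apart, at 0.34 (adjusted p = 0.0166) without numbers over 100 and at 0.39 (adjusted p = 0.00824) with the covariate. In each of these fits 5 of the 10 genes were called as higher. Over all genes, 1373 of 17778 and 1552 of 17377 were higher, and 17% and 19.4% passed in either direction. Cat measured 351, 357, 371, 381 and 387 CPM in clean air and 389, 412 and 425 CPM at the lowest, median and highest under BD. Its ranges did not overlap, but the step was small (log2 0.15 ± 0.069 SE, adjusted p = 0.17) and passed only in a fit restricted to these 2 groups (adjusted p = 0.0459). Prdx6 and Cat were the 2 of 10 genes whose ranges did not overlap.

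Sod3, the extracellular dismutase, averaged 77.3 ± 15.4 CPM (SD, n = 5) without exposure and 61.7 ± 9.75 CPM with BD (SD, n = 6; log2 -0.32 ± 0.15 SE, adjusted p = 0.194). Sod1 had a log2 of 0.23 ± 0.15 SE (adjusted p = 0.384), Gpx3, the secreted plasma enzyme, one of -0.15 ± 0.17 SE (adjusted p = 0.662), and Gpx1, the widely expressed cytosolic enzyme, one of 0.0099 ± 0.12 SE (adjusted p = 0.98). The 95% interval for Gpx1 was -0.23 to 0.25 on the log2 scale, so changes within that range in either direction were not excluded.

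**Figure D2:**
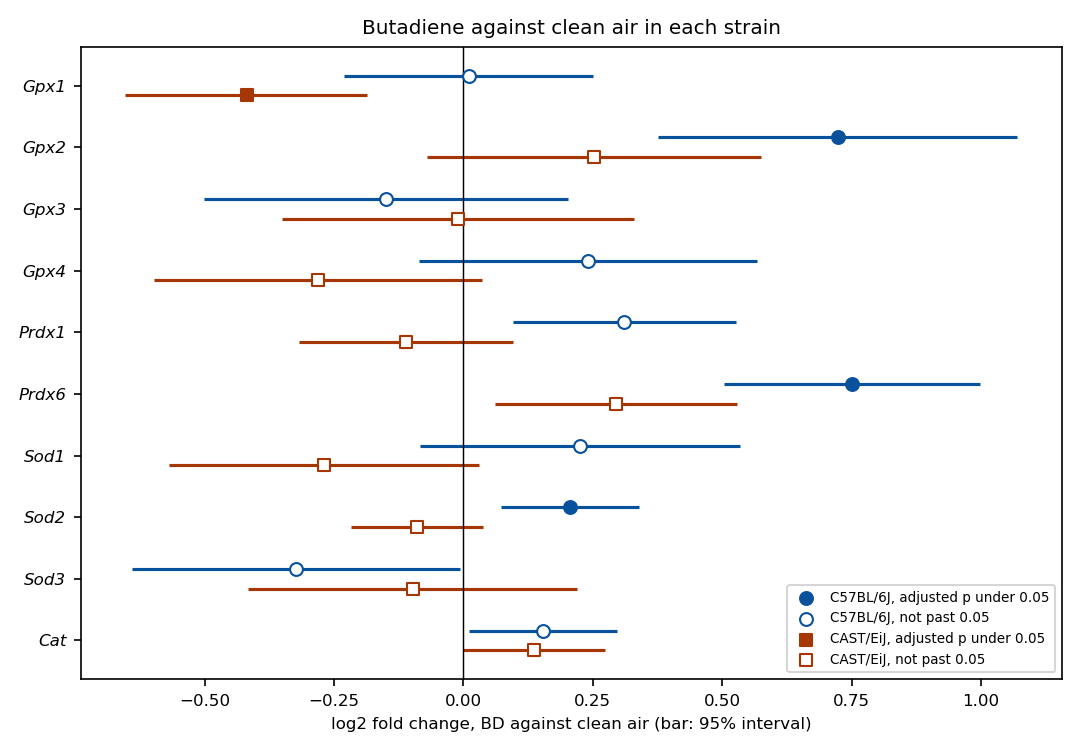
Log2 fold change of BD against clean air for each gene in C57BL/6J (blue circles) and CAST/EiJ (brown squares), with 95% intervals as bars; filled points have an adjusted p under 0.05. Prdx6 and Gpx2 lie farthest to the right in C57BL/6J, and Gpx1 is the only filled point in CAST/EiJ.

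To determine the response of CAST/EiJ, its 5 exposed libraries were set against 7 from clean air. Gpx1 fell and no gene rose; 9 of 10 did not pass in edgeR, where 7.22% of all genes passed, 3.86% as higher and 3.37% as lower. At an unadjusted p under 0.05 edgeR gave 1 gene, Prdx6, as higher and 1 as lower. For scale, Cat, at an edgeR p of 0.0507, ranked 4929 of 17377 genes by p. DESeq2 and limma-voom each called none of the 10 higher and 1 lower. Over all genes, DESeq2 called 1105 higher and 1156 lower, and limma-voom 867 and 663. The median log2 fold change of the 10 genes was -0.094, against -0.018 over all genes. No gene of the 10 had ranges that did not overlap, against 2.07% of all genes.

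Gpx1 measured 172, 282 and 305 CPM at the lowest, median and highest of 7 clean-air libraries. The BD libraries measured 176, 189, 196, 200 and 200 CPM. The clean-air libraries split by title number: those over 100 measured 252 to 305 CPM, and the remaining replicates 6 and 7 measured 172 and 203 CPM, on either side of the BD range. The mean went from 257 ± 51.5 (SD, n = 7) to 192 ± 9.92 CPM (SD, n = 5), a log2 of -0.42 ± 0.11 SE (adjusted p = 0.0306). With replicates 6 and 7 as the only clean-air libraries the log2 was 0.041 (adjusted p = 0.902), and none of the 10 genes passed, against 3.53% of all genes; with the covariate it was -0.033 (adjusted p = 0.954), and with the fit restricted to these groups it was -0.41 (adjusted p = 0.096). The call also ended without clean-air replicate 1 (adjusted p = 0.0598), 2 (0.0579), 4 (0.0672) or 5 (0.0603), or BD replicate 1 (0.0539), 3 (0.0547), 4 (0.0742) or 6 (0.0564). With number 8 kept it was -0.50 (adjusted p = 0.0152). The exposure difference of Gpx1 thus cannot be told apart from the number series. Among 79 cytosolic ribosomal protein genes, 13 fell and none rose in the same comparison, with a median log2 of -0.29. Over all genes 3.37% fell. The mean log2 CPM of the ribosomal genes was 6.85 to 7.13 in the clean-air numbers over 100 and 6.56 and 6.66 in replicates 6 and 7. Under BD it was 6.52 to 6.75, so the ribosomal fall likewise cannot be told apart from the number series.

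Prdx6 had a positive log2 in CAST/EiJ too. Clean-air libraries measured 798, 1103 and 1311 CPM at the lowest, median and highest, and BD libraries 1143, 1264, 1284, 1426 and 1566 CPM. The groups overlapped, with 5 clean-air libraries below the lowest BD library. The log2 was 0.30 ± 0.11 SE (adjusted p = 0.0958), and it passed with the covariate at 0.51 (adjusted p = 0.046), where 1.58% of all genes passed; without numbers over 100 it was 0.52 (adjusted p = 0.0911).

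The direction of Gpx4 and Prdx1 in CAST/EiJ also moved with the number series. Gpx4 had a log2 of -0.28 ± 0.15 SE (adjusted p = 0.23), which became 0.35 (adjusted p = 0.14) without numbers over 100. Its clean-air values were 120 to 169 CPM in the numbers over 100 and 76.3 and 87.0 CPM in replicates 6 and 7, with 98.9 to 108 CPM under BD. Prdx1 likewise had -0.11 ± 0.10 SE (adjusted p = 0.49) and 0.13 (adjusted p = 0.571) without them. Sod1 had -0.27 ± 0.14 SE (adjusted p = 0.222), and -0.071 (adjusted p = 0.932) without them. The numbers over 100 were the 5 higher clean-air libraries for Gpx4 and Prdx1. For Sod1 the series overlapped, with replicate 7 at 185 CPM inside the 180 to 219 CPM of the numbers over 100, and the series itself did not pass (adjusted p = 0.0891).

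Gpx2 measured 26.2, 33.3 and 41.8 CPM at the lowest, median and highest in CAST/EiJ clean air, and 29.9, 39.5, 40.1, 40.4 and 43.9 CPM under BD. Replicate 1 was the low BD library, and the log2 was 0.25 ± 0.16 SE (adjusted p = 0.29). It was 0.35 (adjusted p = 0.262) without numbers over 100 and 0.58 (adjusted p = 0.0791) with the covariate. Cat had 0.14 ± 0.067 SE (adjusted p = 0.179), close in size to its value in C57BL/6J. Gpx3 spread more than any other gene of the 10 in CAST/EiJ BD, relative to its mean, from 102.1 CPM in replicate 4 to 307 CPM in replicate 1, against 197 to 229 CPM in clean air (log2 -0.010 ± 0.16 SE, adjusted p = 0.978). Sod2 had -0.09 ± 0.062 SE (adjusted p = 0.348) and Sod3 -0.098 ± 0.15 SE (adjusted p = 0.715).

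**Figure D3:**
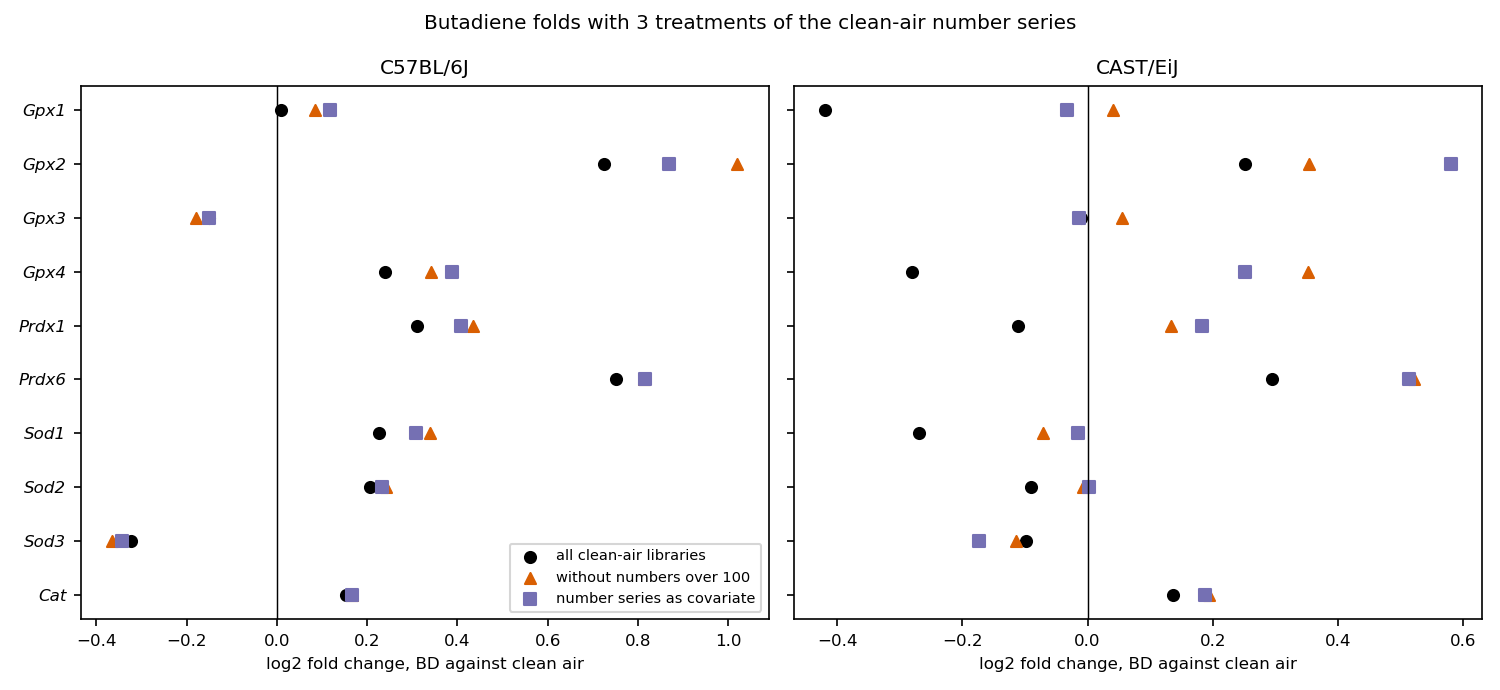
Log2 fold change of BD against clean air (horizontal axis) for each gene in C57BL/6J (left) and CAST/EiJ (right), from all clean-air libraries (black circles), without title numbers over 100 (orange triangles) and with the number series as a covariate (violet squares). In CAST/EiJ, Gpx4 and Prdx1 change side, Gpx1 moves from -0.42 to near 0, and Prdx6 moves to about 0.5; in C57BL/6J all points of a gene stay on one side.

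Whether BD acted differently in the strains was tested by the interaction of strain and exposure. Sod2 passed, with a smaller BD ratio in CAST/EiJ (log2 difference -0.30 ± 0.090 SE, adjusted p = 0.0404), and the other 9 did not pass; 9.44% of all genes did, 3.82% with a smaller ratio in CAST/EiJ. The Sod2 call was lost with the covariate (-0.23, adjusted p = 0.16), without numbers over 100 (-0.25, adjusted p = 0.185), with no filter (adjusted p = 0.0612), with limma-voom (adjusted p = 0.0506) and on leaving out any 1 of 14 of the 23 libraries (C57BL/6J clean-air replicates 2 to 4 and BD replicates 3 to 6, CAST/EiJ clean-air replicates 2 to 5 and BD replicates 1, 2 and 4; adjusted p between 0.0523 and 0.0895). The count itself moved with single libraries, to 6 genes of the 10 without C57BL/6J clean-air replicate 1, 5 and 3 without CAST/EiJ clean-air replicates 6 and 7, and 2 without C57BL/6J BD replicate 1 or CAST/EiJ BD replicate 3. The number called over all genes moved from 1641 to 3392 without C57BL/6J clean-air replicate 1 and to 3234 without CAST/EiJ clean-air replicate 6. With number 8 kept, 2 of the 10 passed, against 11.7% of all genes. At an unadjusted p under 0.05, 6 genes had a smaller ratio in CAST/EiJ and none a larger one in edgeR. For scale, Gpx2, at an edgeR p of 0.051, ranked 5142 of 17377 genes by p. DESeq2 called 3 of the 10 and 2453 genes in total, and limma-voom none of the 10 and 1158 in total. The median log2 difference over the 10 genes was -0.43, against -0.017 over all genes, and no gene of the 10 passed in the numbers up to 100 alone, where 1.8% of all genes did, or with the covariate, where 0.483% did. A BD response that differed between strains in these genes was therefore not separable from the number series.

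To determine the strain difference in clean air, 7 CAST/EiJ were compared with 5 C57BL/6J libraries. Gpx1, Gpx2, Prdx1, Prdx6 and Sod2 were higher in CAST/EiJ, Sod3 and Cat were lower, and Gpx3, Gpx4 and Sod1 did not pass. Across all genes 60.4% passed, 29.4% as higher and 31% as lower, so 7 of 10 is near that background. The ranges of 4 genes (Gpx2, Sod2, Sod3 and Cat) did not overlap, against 31.9% of all genes. The median log2 difference was 0.38 over the 10 genes and -0.00050 over all genes. Under BD, Gpx1, Gpx2 and Sod2 were higher, Sod1, Sod3 and Cat were lower, and 42.7% of all genes passed, 20.4% as higher and 22.3% as lower. The ranges of Gpx1, Gpx2, Sod3 and Cat did not overlap, against 29.4% of all genes. With number 8 kept under BD, 1 gene was higher and 3 were lower, against 34.7% of all genes in either direction. How the reads of CAST/EiJ, which differs from the reference strain at many sites, were handled in alignment is not given in the sources used here, and the part of this in the strain differences was not tested.

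Sod3 had the greatest strain difference of the 10 genes, and it was the lower enzyme in CAST/EiJ. Clean-air C57BL/6J libraries measured 60.5, 67.7, 71.3, 92.4 and 94.8 CPM. Clean-air CAST/EiJ libraries measured 14.8, 19.9 and 29.3 CPM at the lowest, median and highest. No library of one strain came near the other, and the mean was 77.3 ± 15.4 (SD, n = 5) against 20.3 ± 4.55 CPM (SD, n = 7), 3.79-fold lower in CAST/EiJ (log2 -1.92 ± 0.15 SE, adjusted p = 2.87e-10). Under BD, C57BL/6J libraries measured 49.7, 63.0 and 73.5 CPM and CAST/EiJ libraries 15.5, 15.6, 19.1, 21.2 and 23.9 CPM, 3.25-fold lower (log2 -1.70 ± 0.16 SE, adjusted p = 9.96e-09). Number 8 measured 57.2 CPM, inside the C57BL/6J range; with it kept as CAST/EiJ BD the log2 was -1.29 (adjusted p = 0.000443). The call held in all 31 alternatives of both comparisons. Sod3 is known to be made by vascular smooth muscle, among other cells. The 5 smooth muscle markers, none at 0, were higher in CAST/EiJ in clean air for 5 of 5, against 29.4% of all genes. Their sums were 1263 to 2664 against 756.9 to 938.1 CPM. Under BD 1 of 5 was higher, with sums of 920 to 1752 against 809.8 to 1150 CPM, and their part in the Sod3 result was not tested.

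Cat was also lower in CAST/EiJ. The clean-air values were 236, 296 and 313 CPM at the lowest, median and highest, all below the C57BL/6J minimum of 351 CPM. The mean was 281 ± 31.1 (SD, n = 7) against 369 ± 15.3 CPM (SD, n = 5; log2 -0.40 ± 0.066 SE, adjusted p = 1.98e-05). Under BD it was 280, 302, 314, 319 and 328 CPM against 389 to 425 CPM (log2 -0.41 ± 0.069 SE, adjusted p = 3.56e-05). The groups did not overlap in either exposure, and number 8, at 415 CPM, lay in the C57BL/6J range.

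Gpx2 was the gene with the greatest rise from C57BL/6J to CAST/EiJ, from 11.3 ± 4.41 (SD, n = 5) to 32.6 ± 5.15 CPM (SD, n = 7) in clean air, 2.85-fold (log2 1.51 ± 0.17 SE, adjusted p = 6.56e-08). Under BD it was 2.05-fold higher, at 38.7 ± 5.24 (SD, n = 5) against 18.9 ± 2.02 CPM (SD, n = 6; log2 1.04 ± 0.16 SE, adjusted p = 1.41e-05). The strains did not overlap in either exposure. The difference also held with the number series as covariate, at a log2 of 1.33 (adjusted p = 1.77e-07) in clean air. Squamous markers summed to 11.4 to 2110 CPM in CAST/EiJ clean air and 4.54 to 2280 CPM under BD. Of the 8 markers, 2 were higher in CAST/EiJ in clean air and 1 under BD. CAST/EiJ BD replicate 1 had both the lowest squamous sum and the lowest Gpx2 of its group, at 29.9 CPM. The highest sum of that group, 2280 CPM in replicate 2, came with 40.1 CPM of Gpx2, and the highest Gpx2, 43.9 CPM, was in replicate 4. In CAST/EiJ clean air the lowest values did not coincide. There the lowest Gpx2, 26.2 CPM in replicate 6, came with a sum of 685 CPM, and replicate 3, with the lowest sum, had 30.9 CPM. Clean-air replicate 1 had both the highest sum, 2110 CPM, and the highest Gpx2, 41.8 CPM. The part of squamous tissue in the strain difference was not tested.

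Sod2 went from 94.4 ± 6.55 (SD, n = 5) to 131 ± 9.30 CPM (SD, n = 7) in clean air without overlap (log2 0.47 ± 0.063 SE, adjusted p = 9.74e-07). Under BD the difference was 0.17 ± 0.064 SE (adjusted p = 0.0311), with overlapping ranges of 96.3 to 118 and 114 to 130 CPM. The BD call was lost with number 8 kept (0.14, adjusted p = 0.0872) or without C57BL/6J BD replicate 1 (0.0835) or 2 (0.0619), or CAST/EiJ BD replicate 3 (0.0566), 4 (0.0575) or 6 (0.0826).

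Gpx1 was 1.71-fold higher in clean air (log2 0.78 ± 0.11 SE, adjusted p = 3.83e-06). In the numbers up to 100 it was 0.39 (adjusted p = 0.00266), with CAST/EiJ replicates 6 and 7 at 172 and 203 CPM and C57BL/6J replicates 2 to 5 at 134 to 160 CPM. Under BD it was 0.35 ± 0.12 SE (adjusted p = 0.018), without overlap (176 to 200 against 142 to 174 CPM), and was lost with number 8 kept (0.26, adjusted p = 0.113). Higher Gpx1 in CAST/EiJ was thus present inside the lower number series, at a smaller size.

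Prdx1 was higher in clean air by a log2 of 0.64 ± 0.10 SE (adjusted p = 1.02e-05) and by 0.44 (adjusted p = 4.96e-05) with the covariate. Under BD it was 0.22 ± 0.10 SE (adjusted p = 0.0919). It passed there without C57BL/6J clean-air replicate 1 (adjusted p = 0.0416) and without numbers over 100 (0.00913). It also passed with the covariate (0.0121) and in a fit restricted to the BD groups (0.0112). Prdx6 was higher in clean air by 0.43 ± 0.11 SE (adjusted p = 0.00245), a call lost without numbers over 100 (0.27, adjusted p = 0.184) and with the covariate (0.28, adjusted p = 0.0506). Under BD the Prdx6 levels of the strains were close, at 1336 ± 163 CPM (SD, n = 5) in CAST/EiJ and 1359 ± 202.5 CPM (SD, n = 6) in C57BL/6J; the log2 was -0.024 with a 95% interval of -0.27 to 0.22.

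Sod1 showed its strain difference under BD. C57BL/6J measured 174, 250 and 287 CPM at the lowest, median and highest, and CAST/EiJ 115, 159, 165, 174 and 179 CPM. Replicate 6 was the only C57BL/6J library within the CAST/EiJ range. The log2 was -0.61 ± 0.15 SE (adjusted p = 0.00207), and it was called in all 31 alternatives. In clean air the log2 was -0.11 ± 0.14 SE (adjusted p = 0.51), and the interaction did not pass (-0.49 ± 0.21 SE, adjusted p = 0.119), so a difference between the exposures was not shown. Under BD all 4 club cell markers were lower in CAST/EiJ too, with sums at 4064 to 7648 against 7255 to 9296 CPM. Of 6 ciliated cell markers 4 were lower and 1 higher, with overlapping sums (292.9 to 395.8 against 287.4 to 475.3 CPM). Other markers went either way: 5 of 5 neutrophil markers were higher, 4 of 5 T cell markers lower, and of 8 alveolar type 2 markers 2 were higher and 3 lower. Over all genes 20.4% were higher and 22.3% lower. The part of these cell types in the Sod1 result was not tested.

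Gpx4 had a log2 of 0.32 ± 0.15 SE in clean air (adjusted p = 0.0755), which turned to -0.21 (adjusted p = 0.172) without numbers over 100 and to -0.064 (adjusted p = 0.65) with the covariate. The clean-air log2 passed as higher with DESeq2 (adjusted p = 0.0469). In edgeR it passed without C57BL/6J clean-air replicate 1 (0.0273) or CAST/EiJ clean-air replicate 6 (0.00924) or 7 (0.0185). Under BD, where no number over 100 occurred, it was -0.20 ± 0.16 SE (adjusted p = 0.325). Gpx3 was at -0.26 ± 0.16 SE (adjusted p = 0.179) in clean air and -0.12 ± 0.17 SE (adjusted p = 0.615) under BD. It passed in a fit restricted to the clean-air groups (adjusted p = 0.0135).

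**Figure D4:**
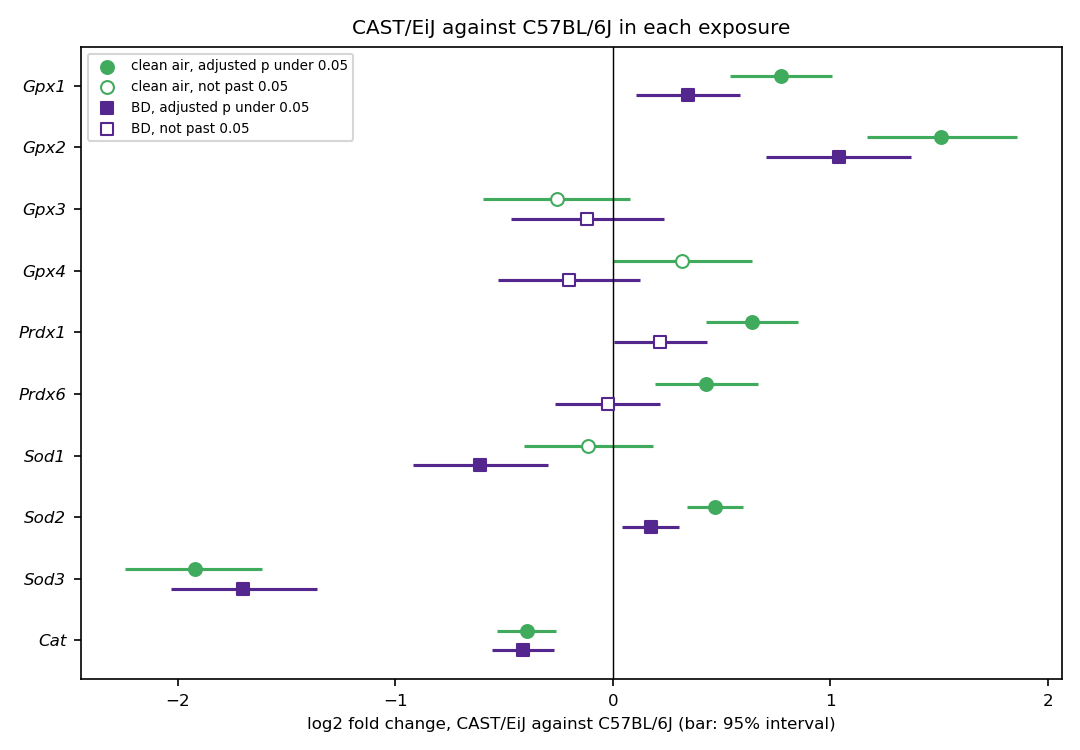
Log2 fold change of CAST/EiJ against C57BL/6J for each gene in clean air (green circles) and under BD (violet squares), with 95% intervals as bars and filled points for an adjusted p under 0.05. Sod3 and Cat lie left of 0 and Gpx1, Gpx2 and Sod2 right of 0 in both exposures, with filled points.

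Placed in order of mean level, the 4 groups ranked differently by gene. Gpx2 and Sod2 were lowest in clean-air C57BL/6J, next in C57BL/6J BD, and highest in the CAST/EiJ groups, whose neighbours in this order did not differ by test (adjusted p = 0.29 for Gpx2 and 0.348 for Sod2). Sod3 and Cat ranked the other way by strain, and in each strain the exposures, neighbours in this order, did not differ by test. For Prdx6, clean-air C57BL/6J at 807.5 CPM was lowest, clean-air CAST/EiJ at 1089 CPM followed, and the BD groups at 1336 and 1359 CPM did not differ by test. Relative spread within a group was lowest for Cat in C57BL/6J BD, with a coefficient of variation of 3.26%, and reached 39.1% for Gpx2 in clean-air C57BL/6J, where replicate 1 stood apart.

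The genes around these enzymes were read from the same fit, in lists chosen by role. The 5 genes of glutathione supply rose with BD, 5 of 5 in each strain, with a median log2 of 0.62 in C57BL/6J and 0.81 in CAST/EiJ. Over all genes 4.2% rose in C57BL/6J and 3.86% in CAST/EiJ. Slc7a11, the cystine transporter subunit, had a log2 of 1.07 ± 0.32 SE in C57BL/6J (adjusted p = 0.0323) and 2.19 ± 0.30 SE in CAST/EiJ (adjusted p = 0.000287). Gsr, which regenerates glutathione, rose by 0.30 ± 0.072 SE (adjusted p = 0.00874) and 0.46 ± 0.069 SE (adjusted p = 0.000579). Gclm, the modifier subunit of glutathione synthesis, rose by 0.62 ± 0.14 SE (adjusted p = 0.00566) and 0.81 ± 0.13 SE (adjusted p = 0.00178), the latter lost without numbers over 100 (0.50, adjusted p = 0.12). These genes make, regenerate or import material for the glutathione that the peroxidases use.

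Of 10 genes of thioredoxin support, 3 rose in C57BL/6J and 2 in CAST/EiJ, against 4.2% and 3.86% of all genes, and none fell. Txnrd1, the cytosolic thioredoxin reductase, rose 1.84-fold in C57BL/6J (adjusted p = 1.67e-05) and 2.29-fold in CAST/EiJ (adjusted p = 7.34e-08). Srxn1, which repairs over-oxidised peroxiredoxins, rose 2.91-fold (adjusted p = 1.34e-10) and 3.04-fold (adjusted p = 8.25e-12). Txn1, the thioredoxin itself, rose in C57BL/6J from 116 ± 20.2 (SD, n = 5) to 151 ± 5.59 CPM (SD, n = 6; adjusted p = 0.0137). The list's median log2 was 0.022 and 0.013, since most of its other genes, such as the sestrins, did not pass.

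Of the other members of these enzyme families, Gpx5, Gpx6 and Prdx6b were under the filter and 6 were tested. Prdx3, the mitochondrial peroxiredoxin, rose in C57BL/6J (log2 0.29 ± 0.092 SE, adjusted p = 0.045), and was lost with number 8 kept (adjusted p = 0.0609). Gpx8 fell in CAST/EiJ (-0.41 ± 0.12 SE, adjusted p = 0.0419) and, as for Gpx1, not with the covariate (-0.092, adjusted p = 0.862). In clean air 5 of 6 were higher in CAST/EiJ and none lower, against 29.4% of all genes as higher, with a median log2 of 0.55; the count was 4 with the covariate and 3 without numbers over 100. Under BD in C57BL/6J, 1 of 6 was higher, against 4.2% of all genes, and none with number 8 kept. With the covariate 5 of 6 were higher, in a fit that called 1552 of 17377 genes as higher and 19.4% in either direction.

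Peroxisome genes are read beside Cat, which resides there. In C57BL/6J 5 of 40 rose under BD and none fell, with a median log2 of 0.13; among them were Pex11a (0.66 ± 0.16 SE, adjusted p = 0.00892), which drives peroxisome division, the oxidase Acox2, Hsd17b4 and Abcd3. The count was 2 of 40 with number 8 kept. In CAST/EiJ 2 of 40 fell, Acaa1b (-0.48 ± 0.13 SE, adjusted p = 0.0294) and Scp2 (-0.32 ± 0.080 SE, adjusted p = 0.0248), and neither passed with the covariate. Over all genes 4.2% rose and 6.49% fell in C57BL/6J, and 3.86% rose and 3.37% fell in CAST/EiJ.

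Copper delivery genes serve Sod1 and Sod3. In C57BL/6J, 2 of 7 rose under BD, against 4.2% of all genes. These were Atp7b, a copper exporter, 1.51-fold (adjusted p = 0.002) and Slc31a1, the high-affinity copper importer, 1.32-fold (adjusted p = 0.00279). Ccs, the chaperone that loads copper into Sod1, was higher in CAST/EiJ in clean air (log2 0.54 ± 0.083 SE, adjusted p = 6.76e-06) and under BD (0.29 ± 0.084 SE, adjusted p = 0.00753), whereas Slc31a1 was lower in both (-0.44 and -0.82; adjusted p = 3.33e-05 and 1.29e-08). Under BD, Ccs thus stood opposite to Sod1, and the Ccs call there was lost with number 8 kept (0.21, adjusted p = 0.0943).

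Genes of selenium delivery and selenoprotein synthesis, on which Gpx1 to Gpx4 depend, had median log2 changes of 0.094 and -0.10 with BD in C57BL/6J and CAST/EiJ. In C57BL/6J 1 of 11 rose, against 4.2% of all genes, Sepsecs, an enzyme of selenocysteine synthesis (log2 0.42 ± 0.072 SE, adjusted p = 0.00075). In CAST/EiJ 2 of 11 rose, against 3.86% of all genes, Lrp8, a receptor for the selenium carrier (0.82 ± 0.19 SE, adjusted p = 0.0181), and Scly (0.43 ± 0.13 SE, adjusted p = 0.0496), and neither passed with the covariate. The carrier itself, Sepp1, was higher in CAST/EiJ, at 1640 ± 262 (SD, n = 7) against 942 ± 75.5 CPM (SD, n = 5) in clean air (adjusted p = 8.69e-07). Among 11 other selenoproteins 1 rose in C57BL/6J, Selo (0.27 ± 0.061 SE, adjusted p = 0.00711), and 1 fell in CAST/EiJ, Selm (-0.69 ± 0.18 SE, adjusted p = 0.0266), the latter not with the covariate.

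Of 21 tested genes that produce superoxide or hydrogen peroxide, 1 rose and 5 fell under BD in C57BL/6J. Over all genes 4.2% rose and 6.49% fell. Xdh, xanthine dehydrogenase, rose 1.38-fold (adjusted p = 0.0138). The lower ones included subunits of the phagocyte oxidase: Rac2 (log2 -0.95 ± 0.19 SE, adjusted p = 0.00306), Ncf4 (-0.91 ± 0.19 SE, adjusted p = 0.00368) and Ncf1. Of the 5 that fell, Rac2 and Ncf4 passed with number 8 kept. B cell markers fell with them, 5 of 5, with none at 0 and sums of 123 to 226 CPM in clean air and 39.8 to 111 CPM under BD, and T cell markers fell in 2 of 5 (20.3 to 32.3 and 11.7 to 23 CPM). None of 5 neutrophil markers passed, with a median log2 of -0.57 and sums of 45.4 to 75.4 CPM in clean air and 18.4 to 97.3 CPM under BD, and of 7 alveolar macrophage markers 1 rose and none fell, with sums of 324 to 432 and 396 to 635 CPM. The part of these cell types in the oxidase result was not tested. In CAST/EiJ 1 of 21 fell, Maob, against 3.37% of all genes, and it did not pass with the covariate (adjusted p = 0.446). The counts held 5 haem peroxidases, of which 1 was tested, and it did not pass in any comparison.

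**Figure D5:**
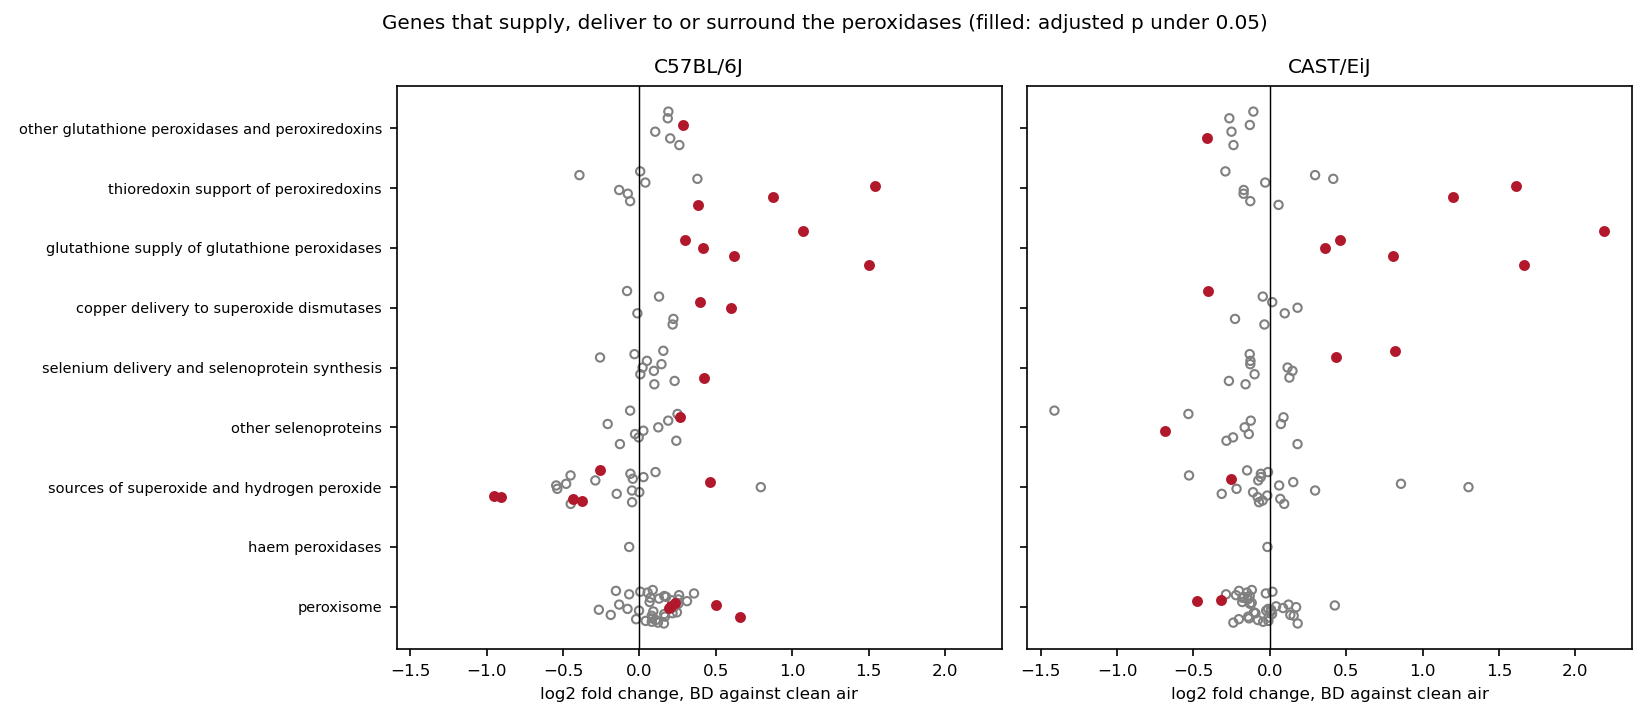
Log2 fold change of BD against clean air (horizontal axis) in C57BL/6J (left) and CAST/EiJ (right) for every tested gene of 9 lists (vertical axis); filled red points have an adjusted p under 0.05 and open grey points do not. All 5 glutathione supply genes lie to the right in both strains, while most genes of the peroxisome and selenium lists lie near 0.

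The 10 genes did not move as 1 block from library to library. After each group's mean was removed, Gpx1 and Gpx4 had a Pearson r of 0.91 over the 23 libraries and Prdx6 and Sod1 one of 0.83. Gpx3 and Sod3, both secreted, had 0.63, and Gpx2 and Sod3 had -0.51. These values are descriptions: the libraries share depth and, in clean air, the number series. Over all 23 libraries, the gene most like each member among 14529 genes was Chmp4b for Gpx1 (r = 0.98), Ttc1 for Gpx2 (0.95), Fkbp1a for Gpx3 (0.88), Ap2s1 for Gpx4 (0.94), Hspa13 for Prdx1 (0.96), Slc22a5 for Prdx6 (0.91), Myl12b for Sod1 (0.89), Gde1 for Sod2 (0.97), Tlr5 for Sod3 (0.98) and Capn1 for Cat (0.94). The r of Tlr5 with Sod3 was 0.62 once the group means were removed, so much of that likeness lay between the strains. For Gpx4 and Ap2s1 it stayed at 0.93. Sqstm1, the autophagy receptor, ranked 3 for Prdx6 (r = 0.90, and 0.71 without group means).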

How the data were processed

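Lung RNA was sequenced in 24 of the 68 samples; the ATAC-seq samples (24) and small RNA samples (20) were not analysed here. The deposited table holds raw read counts per gene symbol; the authors aligned reads with GSNAP to mm9, per the submitters' processing notes, and the counting tool, versions and strand setting are not given in the sources used here. Columns were matched to samples by title number. Of 23893 entries, 23872 had a value in every library, 21 lacked CAST/EiJ values, and 17377 passed edgeR's filterByExpr. Counts were fitted with edgeR 4.0.16 (trimmed mean of M values, robust quasi-likelihood F test) in R 4.3.3, with 1 mean per group over 23 libraries, with Benjamini-Hochberg adjustment over all genes tested (threshold 0.05). Alternatives used DESeq2 1.42.0, limma-voom (limma 3.58.1), other scaling, no filter, the compared groups alone, library number 8 kept, title numbers over 100 left out or as a covariate, and each library left out in turn. The fit was tested on simulated data. No pair of libraries agreed within sampling noise: chi-square per degree of freedom was at least 5.06 in each of 276 pairs. The strain index was the median over the 200 genes with the smallest strain p in clean air. Total counts of 10597990 to 50001571 limit precision for rare genes only.

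The 10 genes and the lists around them were chosen with earlier results of these data known. All 10 genes are reported in every comparison. From each list, up to 2 called genes per direction with the largest change and a mean of at least 1 CPM could be named; Gsr, Gclm, Txn1, Hsd17b4, Abcd3, Ncf1, the pseudogene Gpx2-ps1 and the lncRNA AV051173 were named after their values or loci were seen. The 3 genes most like each of the 10 were found by Pearson r of log2 CPM (prior count 2) among established symbols whose mean reached 1 CPM. Sequences and the overlap of genes come from RefSeq (GRCm38.p6), whose build differs from that of the counts.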

Additional observations from a re-analysis of the deposited data

Results flagged for a closer look

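In 6 of 50 groups of values (10 genes in 5 groups, CAST/EiJ BD with and without number 8), 1 library stood apart from the rest by Dixon's criterion. Chance would mark about 2.5 of 50 separate groups. These groups were not separate, because CAST/EiJ BD was counted with and without number 8. Number 8 had already been set apart by its strain index. Its marks were therefore foreseeable, and no conclusion is drawn from the count. In C57BL/6J BD, replicate 5 held the highest Gpx1 (174 CPM; the others 142 to 151) and the highest Gpx2 (22.7 CPM; the others 16.9 to 18.9). In clean-air C57BL/6J, replicate 1 held 19.0 CPM of Gpx2, and the others 8.0 to 10.3 CPM. With number 8 kept in CAST/EiJ BD, it stood apart for Gpx1 (126 CPM; the others 176 to 200), Sod3 (57.2 CPM; the others 15.5 to 23.9) and Cat (415 CPM; the others 280 to 328).

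For Sod2 the test of the difference in BD response between the strains passed narrowly, at a log2 of -0.296 (edgeR, adjusted p = 0.0404). BD libraries averaged 109 against 94.4 CPM in C57BL/6J and 123 against 131 CPM in CAST/EiJ. Of 30 alternatives 12 kept the call, with adjusted p between 0.0163 (DESeq2) and 0.185 (without numbers over 100). It was lost without any 1 of 14 of the 23 libraries, with no filter (0.0612), with limma-voom (0.0506) and with the covariate (0.16), and could not be told apart from the number series.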

How the results depend on the processing

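Of 1540 settings of single genes, 1425 kept their direction and side of the threshold. A further 45 lost and 37 gained a call with the sign kept, and 33 changed sign. Where both sign and call changed, the setting was counted under sign alone, as for Gpx1 with BD in CAST/EiJ without numbers over 100. Without numbers over 100, the BD comparison in C57BL/6J called 3016 genes (5 of the 10), in CAST/EiJ 627 (0 of the 10), and the interaction 320 (0 of the 10); with the covariate the counts were 3368 (5 of the 10), 275 (Prdx6 in place of Gpx1) and 84 (0 of the 10). With number 8 kept, 2390 genes were called in CAST/EiJ and 2035 (2 of the 10) in the interaction. DESeq2 called 2261 in CAST/EiJ and 2453 (3 of the 10) in the interaction, and limma-voom 1158 (0 of the 10) in the interaction. The fit of the compared groups alone called 159 (0 of the 10) in CAST/EiJ, and no filter 1041 (0 of the 10) in the interaction. Leaving out 1 library gave 977 (C57BL/6J clean-air replicate 3) to 2309 genes in C57BL/6J, 354 (CAST/EiJ clean-air replicate 4) to 3007 (replicate 6) in CAST/EiJ with 0 to 1 of the 10, and 372 (C57BL/6J clean-air replicate 3) to 3392 (replicate 1) in the interaction with 0 to 6 of the 10.

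Signs that changed, in log2, were as follows. For BD in CAST/EiJ without numbers over 100 they were Gpx1 0.0406, Gpx3 0.0544, Gpx4 0.352 and Prdx1 0.133; with the covariate Gpx4 0.252, Prdx1 0.183 and Sod2 0.00193; with number 8 kept Gpx3 0.0282 and Sod3 0.313. For strain in clean air Gpx4 was -0.212 without numbers over 100 and -0.0643 with the covariate, and for strain under BD with no filter Prdx6 was 0.00386. In the interaction Cat was 0.0641 with number 8 kept, 0.0271 without numbers over 100 and 0.02 with the covariate, and Gpx4 was 0.0102 without numbers over 100. Leaving out 1 library moved BD in C57BL/6J for Gpx1 from -0.0342 to 0.0825. It moved BD in CAST/EiJ for Gpx3 from -0.198 to 0.161 and for Sod3 from -0.19 to 0.0136. It moved strain under BD for Gpx3 from -0.305 to 0.0541 and for Prdx6 from -0.0884 to 0.0352, and the interaction for Gpx3 from -0.0489 to 0.311 and for Cat from -0.0541 to 0.0153. The cause was not tested. No paired analysis was possible because the RNA-seq groups share no title numbers, and the replicate numbers only follow the order of the samples. Normalization by relative log expression moved the median of all genes by at most 0.017. Depth limited none of the 10 genes, each with at least 107 counts in every library.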
